A study of Mus musculus with 2 samples.

Results

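Non-cycling CD8 T cells are the killer-lineage lymphocytes of 2 mouse glioblastomas that showed few transcripts of cell division, and they numbered 228 of the 32898 cell barcodes in the series. They were selected by their own transcripts. A member had at least 500 detected genes and a mitochondrial share under 20%, at least 2 unique molecular identifiers (UMIs, each marking 1 captured transcript) of Cd3d, Cd3e and Cd3g together, and at least 1 UMI of Cd8a and Cd8b1 together. It had no UMI of Cd4 or Foxp3, fewer than 3 UMIs of the division genes Mki67, Top2a and Ube2c together, and, per 10000 mouse-gene UMIs, fewer than 5 of the microglial complement genes C1qa, C1qb and C1qc and fewer than 20 of the EGFP tumour label. Those genes chose the cells, so their levels are given as a description with no test. Tumour 1 gave 130 members and tumour 2 gave 98.

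Each library came from a single GBM of the NPCTKO model in C57BL/6 mice of 3 months, per the labels. In this model neocortical progenitors of the embryo are electroporated with a piggyBac transposon that carries Cas9, guides against tumour suppressors including Trp53 and Nf1, and a label, here EGFP, so that a glioma grows in the brain of an immunocompetent host. The transposon is limited to progenitors reached by the current, and the host lymphocytes do not carry it by design. Tumour tissue was digested to single cells. The study's methods say that designated cells were then sorted, without naming which, and state no sort for lymphocytes. Shares of cells given below therefore may not be those of the whole tumour. With 1 library per tumour no difference between the tumours can be tested. Both mice carried the same lesion design. Per the study, the tumours arose in 2 different hosts that shared the Ai14 allele, a tdTomato reporter switched on by Cre. In one host Cre came from Tek-Cre, active in the endothelial and haematopoietic lineages, and in the other from Tbx18CreERT2/+, a tamoxifen-inducible Cre of mural cells. The labels do not say which library belongs to which host.

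CD8 T cells recognise peptides on major histocompatibility complex class I and kill through perforin and granzymes released from cytotoxic granules, or through death ligands, while they secrete interferon gamma and chemokines. Repeated stimulation in tumours is known to raise inhibitory receptors such as PD-1, LAG-3 and TIM-3 and the transcription factor TOX, whereas the factors TCF-1 and LEF-1 with the homing receptor CCR7 mark naive, memory and progenitor states. Many activated CD8 T cells also take up receptors of natural killer (NK) cells. CD4 T cells, set beside them here, help other immune cells through cytokines and ligands of the tumour necrosis factor family.

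Levels of the gate genes describe the members and cannot test their label, since the rule required these transcripts. Values in CPM (UMIs of a gene per 1000000 mouse-gene UMIs, summed over the class) were 801 and 609 for Cd3d and 737 and 416 for Cd8a in tumours 1 and 2. Cd8b1, which encodes the beta chain of the coreceptor, stood at 804 and 259 CPM and Cd3e at 373 and 76 CPM. Both Cd8 genes were detected in 127 of 130 cells of tumour 1 and in 74 of 98 cells of tumour 2, and 17 members of tumour 2 had Cd8a without Cd8b1. The members of tumour 2 therefore sat nearer to the limit, with a median of 15 Cd8 UMIs per cell in tumour 1 and 6 in tumour 2. In tumour 2, 15 members held the single Cd8 UMI that the rule required, and none did in tumour 1. Just outside, 5 and 99 T cells lacked Cd8 UMIs and met all other limits, and 76 and 98 had 3 or more division UMIs. Of the members, 24 and 28 held 2 division UMIs, the value just inside that limit.

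Members made up 1.01% (95% exact binomial interval 0.846 to 1.2) of the 12854 retained cells of tumour 1 and 0.63% (0.512 to 0.767) of the 15555 of tumour 2. With EGFP held under 10 per 10000, a limit chosen after seeing the data, members fell to 89 cells in tumour 1 and to 55 cells, or 0.354% (0.267 to 0.46) of retained cells, in tumour 2. Among T cells their share was 48.3% (42.2 to 54.5) of 269 cells in tumour 1 and 20.9% (17.3 to 24.8) of 470 in tumour 2. These intervals, like all those below, cover counting error only and not the spread between animals. The comparison classes met the same quality, C1q and EGFP limits. They were small: 21 and 38 CD4 T cells without Foxp3, 76 and 98 cycling CD8 T cells, and 5 and 29 NK cells. Non-cycling CD4 T cells met the Cd3 limit with a Cd4 UMI and no Cd8 UMI. Cycling CD8 T cells differed from members in having 3 or more division UMIs. Non-cycling NK cells had no Cd3, Cd8 or Cd4 UMI and at least 2 UMIs of Ncr1 and Klrb1c together. Members held a median of 8592 and 8906 UMIs per cell, against 7150 and 8853 in CD4 T cells, 19156.5 and 25998.5 in cycling CD8 T cells and 8055 and 9741 in NK cells. The libraries held 282961884 and 295366782 UMIs, and 51 cell barcodes occurred in both, 1 of them in a member and none in members of both tumours.

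Transcripts of other cell types were also present in the members. Of the NK markers outside the gates, Klra4 and Klra8 were at 0 in both tumours, and Eomes was present. Eomes, which also stands in the inhibitory list, kept 20 and 14 UMIs in tumours 1 and 2 without its highest cell. The dendritic cell markers Flt3, Xcr1 and Clec9a and the B cell marker Ms4a1 were at 0 in both tumours. The 8 summed markers of macrophages and microglia stood at 2890 and 1204 CPM in members and 1531 and 1899 CPM in CD4 T cells, against 49100 and 28060 CPM in macrophages, the cells with at least 20 C1q UMIs per 10000 and no Cd3. The 9 glioma and neural markers summed to 552.8 and 689.7 CPM in members and 683.1 and 692.2 CPM in CD4 T cells, against 4146 and 2626 CPM in EGFP-high cells, those with at least 20 EGFP UMIs per 10000 and no Cd3 or Ptprc. CD8 and CD4 T cells were thus alike in neural transcripts, and CD8 T cells held more macrophage transcripts than CD4 T cells in tumour 1 and fewer in tumour 2.

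The 8 antigen-presenting genes summed to 230.1 and 1296 CPM in members of tumours 1 and 2, and the 5 oligodendrocyte genes to 101.4 and 305.7 CPM. Neutrophil genes stood at 0 and 170.5 CPM, B cell genes at 6.44 and 3.84 CPM and vascular genes at 20.1 and 17.7 CPM. Antigen-presenting, oligodendrocyte and neutrophil transcripts were thus higher in tumour 2. EGFP itself was found in members at 829 and 862 UMIs per 1000000, against 11180 and 12490 in EGFP-high cells. The part of these transcripts in the results that follow was not tested.

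Against CD4 T cells, CD8 T cells were set apart by granule genes and killer-cell lectin receptors, and CD4 T cells by Tnfsf8, Penk, Maf and Izumo1r. Of 6258 genes tested across 2 tumours, 10 were higher in CD8 T cells (0.16%) and 13 were lower (0.208%) by edgeR's quasi-likelihood test with Benjamini-Hochberg adjustment and the tumour as a block, whose adjusted p is given throughout. The median log2 fold change of all genes was 0.02.

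Among the granule genes, Nkg7, a membrane protein of cytotoxic granules, had 2813 and 1589.8 CPM in CD8 T cells of tumours 1 and 2, against 1467 and 539 CPM in CD4 T cells (log2 fold change 1.35 ± 0.24, SE, adjusted p = 0.00964). It was detected in all 130 members of tumour 1 and in 89 of 98 of tumour 2, and both CD8 values were above both CD4 values. Cst7, which encodes cystatin F, an inhibitor of granule cathepsins, had 602 and 136 CPM in CD8 T cells, against 88.6 and 52.2 CPM in CD4 T cells (log2 fold change 2.17 ± 0.34, SE, adjusted p = 0.00287), and was seen in 123 and 52 members. The groups did not overlap, though macrophages also held Cst7, at 654 and 188 CPM.

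Gzma, which encodes granzyme A, reached 113 and 621 CPM in CD8 T cells, against 12.7 and 0 CPM in CD4 T cells (log2 fold change 7.20 ± 1.09, SE, adjusted p = 0.00234). In CD4 T cells it rested on 2 UMIs in 1 cell, and the ratio of the summed counts was 125.9 with a counting interval of 34.8 to 1041. The gene was concentrated in few members: 5 of 130 cells of tumour 1 held its 141 UMIs, 93 of them in a single cell, and 24 of 98 cells of tumour 2 held 808. DESeq2 did not call it (adjusted p = 0.378).

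Of the killer-cell lectin receptor genes, Klre1 and Klrd1 rose. Klre1, a receptor gene of the NK gene complex, had 342 and 36.1 CPM in CD8 T cells, against 44.3 and 3.87 CPM in CD4 T cells (log2 fold change 3.11 ± 0.49, SE, adjusted p = 0.00345), and was found in 109 and 20 members. Klrd1, the CD94 chain that pairs with NKG2 receptors, had 580.2 and 108 CPM in CD8 T cells, against 215 and 17.4 CPM in CD4 T cells (log2 fold change 1.95 ± 0.36, SE, adjusted p = 0.0165). CD8 T cells of tumour 2 held less of both genes than those of tumour 1, and lay below the CD4 value of tumour 1, where 30 of 34 Klrd1 UMIs came from a single cell. Within each tumour CD8 was the higher class for both genes.

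The predicted gene Gm156 followed the same distribution, with 735 and 66.8 CPM in CD8 T cells, against 108 and 0 CPM in CD4 T cells (log2 fold change 3.26 ± 0.58, SE, adjusted p = 0.0136). Ly6c2, a surface protein known from memory CD8 T cells and from monocytes, had 56.3 and 296 CPM in CD8 T cells, against 6.33 and 54.1 CPM in CD4 T cells (log2 fold change 2.76 ± 0.41, SE, adjusted p = 0.00224). Macrophages held Ly6c2 at 68.9 and 362 CPM, close to the members' own values, and 14 and 40 members had the transcript. Nr4a2, an orphan nuclear receptor induced by antigen receptor signals, had 356 and 41.5 CPM in CD8 T cells, against 152 and 13.5 CPM in CD4 T cells (log2 fold change 1.47 ± 0.32, SE, adjusted p = 0.0496), and passed the threshold only narrowly. Plek, which encodes the protein kinase C substrate pleckstrin, had 123 and 43.8 CPM in CD8 T cells, against 44.3 and 3.87 CPM in CD4 T cells (log2 fold change 2.34 ± 0.50, SE, adjusted p = 0.0472), with 219 and 146 CPM in macrophages. For Gm156, Nr4a2 and Plek the CD8 value of tumour 2 lay below the CD4 value of tumour 1, and CD8 was the higher class within each tumour.

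Htra1, a secreted serine protease, was the tenth gene and the one with the largest fitted change. It had 24.1 and 33.8 CPM in CD8 T cells and no UMI in CD4 T cells (adjusted p = 0.0256). With CD4 T cells set to a floor of 3 counts over both tumours, the ratio of summed counts was 6.55. The counting interval of the ratio began at 5.19. In tumour 2, 38 of the 44 Htra1 UMIs came from a single member, and EGFP-high cells held 88.4 and 52.3 CPM.

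**Figure D1:**
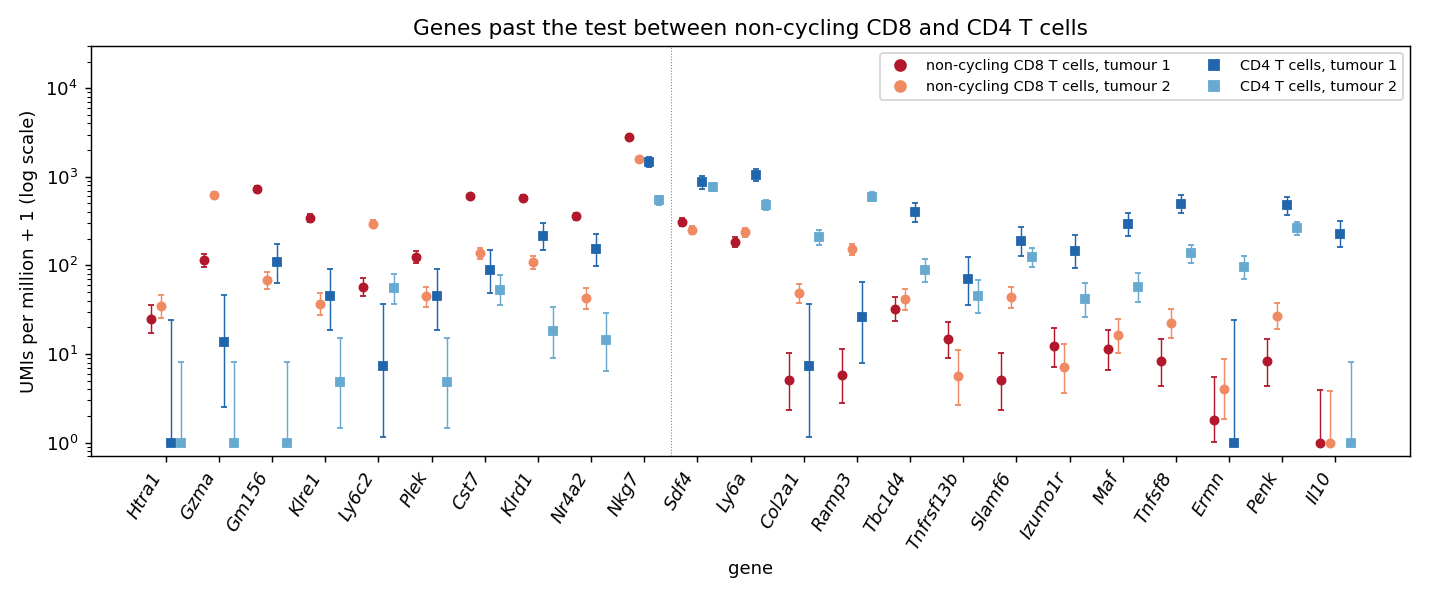
CPM plus 1 on a log axis for the 23 genes called between CD8 and CD4 T cells, with CD8 T cells of tumours 1 and 2 (red and orange circles) left of CD4 T cells of tumours 1 and 2 (blue squares) and bars for the 95% Poisson interval of each sum. Nkg7 and Cst7 had both CD8 points above both CD4 points, and for Tnfsf8 and Penk both CD8 points lay below both CD4 points.

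The upstream sequences of 4 of the higher genes are shown because they are granule or killer receptor genes that hold a RUNX core motif, the site bound by the CD8 lineage factor RUNX3 among others. Ly6c2 held it too and is not shown. Of the 10 higher genes, 8 had a RefSeq promoter entry, and 5 of those 8 held TGTGGT or its reverse complement ACCACA in the 250 bases before the annotated start, as did 1 of 8 matched lower genes of 13. Over all promoters of this length, 4614 of 32851 (14.1%) held it. The sequences are from RefSeq on GRCm38.p6, written 5′ to 3′ on the gene's strand and ending at the base before the start, with the motif in capitals.
Gzma (chr13:113100982-113101231, minus strand): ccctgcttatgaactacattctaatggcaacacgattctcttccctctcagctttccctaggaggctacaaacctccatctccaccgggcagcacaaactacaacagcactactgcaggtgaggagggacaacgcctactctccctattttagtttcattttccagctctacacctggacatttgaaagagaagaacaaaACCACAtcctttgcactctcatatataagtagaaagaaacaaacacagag
Nkg7 (chr7:43436888-43437137, plus strand): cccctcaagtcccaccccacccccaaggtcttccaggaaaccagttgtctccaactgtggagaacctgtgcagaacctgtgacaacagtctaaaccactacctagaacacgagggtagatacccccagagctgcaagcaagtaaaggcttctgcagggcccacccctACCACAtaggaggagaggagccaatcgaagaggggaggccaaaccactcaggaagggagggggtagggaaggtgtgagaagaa
Cst7 (chr2:150570165-150570414, plus strand): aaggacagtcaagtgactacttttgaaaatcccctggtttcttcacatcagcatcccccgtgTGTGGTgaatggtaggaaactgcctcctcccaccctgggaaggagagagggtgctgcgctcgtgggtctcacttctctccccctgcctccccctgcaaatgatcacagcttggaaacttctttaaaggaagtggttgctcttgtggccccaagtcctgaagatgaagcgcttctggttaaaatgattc
Klre1 (chr6:129577963-129578212, plus strand): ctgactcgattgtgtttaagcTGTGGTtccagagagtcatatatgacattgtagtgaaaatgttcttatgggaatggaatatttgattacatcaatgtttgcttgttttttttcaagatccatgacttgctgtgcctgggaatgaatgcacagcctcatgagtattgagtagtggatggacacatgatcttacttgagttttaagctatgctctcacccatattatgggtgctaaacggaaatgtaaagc
The motif lies nearest to the start in Gzma and Nkg7 and farther upstream in Cst7 and Klre1. Klre1 has a second annotated start that was not used here. A match of letters is a description and not a bound site, the motif was chosen with the called genes known, and no binding was measured. Runx3 itself had 218 and 55.3 CPM in CD8 T cells, against 158 and 73.5 CPM in CD4 T cells (log2 fold change 0.19 ± 0.31, SE, adjusted p = 1), and did not pass the test.

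Of the 13 genes lower in CD8 T cells, several are known from helper cells. Tnfsf8, the ligand of CD30, had 7.24 and 21.5 CPM in CD8 T cells, against 493 and 135 CPM in CD4 T cells (log2 fold change -4.06 ± 0.53, SE, adjusted p = 0.000855). Penk, the precursor of enkephalin peptides, had 7.24 and 26.1 CPM in CD8 T cells, against 474 and 261 CPM in CD4 T cells (log2 fold change -4.49 ± 0.61, SE, adjusted p = 0.00119). Both genes were lower in CD8 T cells of both tumours with no overlap, though in tumour 2 Penk rested on 4 CD4 cells, with 72 of 135 UMIs in a single cell.

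The transcription factor gene Maf, which drives IL-10 and helper programmes, had 10.5 and 15.4 CPM in CD8 T cells, against 291 and 56.1 CPM in CD4 T cells (log2 fold change -3.22 ± 0.61, SE, adjusted p = 0.0165). Izumo1r, the folate receptor 4 of regulatory and anergic CD4 cells, had 11.3 and 6.14 CPM in CD8 T cells, against 145 and 40.6 CPM in CD4 T cells (log2 fold change -3.06 ± 0.49, SE, adjusted p = 0.00396). Neither gene's groups overlapped. Slamf6, a receptor found on progenitor T cells, had 4.02 and 43 CPM in CD8 T cells, against 189.8 and 124 CPM in CD4 T cells (log2 fold change -2.79 ± 0.57, SE, adjusted p = 0.0302). Ly6a, the Sca-1 antigen of activated lymphocytes, had 185 and 237 CPM in CD8 T cells, against 1044 and 483 CPM in CD4 T cells (log2 fold change -1.55 ± 0.31, SE, adjusted p = 0.0257). The CD8 values of these genes lay below both CD4 values in every case.

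The remaining lower genes were Sdf4, Ramp3, Tbc1d4, Tnfrsf13b, Il10, Col2a1 and Ermn. Sdf4, a calcium-binding protein of the secretory pathway, had 309.8 and 249 CPM in CD8 T cells, against 867 and 773 CPM in CD4 T cells (log2 fold change -1.42 ± 0.26, SE, adjusted p = 0.0127). Tbc1d4, a Rab GTPase-activating protein, had 31.4 and 40.7 CPM in CD8 T cells, against 398 and 87 CPM in CD4 T cells (log2 fold change -2.30 ± 0.46, SE, adjusted p = 0.026), and Tnfrsf13b, the receptor TACI, fell by 2.60 on the log2 scale. Ramp3, a partner of calcitonin-family receptors, overlapped between the classes, at 4.83 and 151 CPM in CD8 T cells, against 25.3 and 596 CPM in CD4 T cells. Il10 had no UMI in CD8 T cells and 36 UMIs in 4 CD4 cells of tumour 1 alone. With CD8 T cells set to the floor of 3 counts, it was 45.2-fold lower. The counting interval of the CD8 to CD4 ratio ended at 0.0286. Col2a1, a cartilage collagen, had 92 of 107 CD4 UMIs in a single cell of tumour 2 and turned to a log2 difference of 0.14 once the highest cell was left out. Ermn, an oligodendrocyte protein, had 28 of 49 CD4 UMIs in a single cell of tumour 2, and without the highest cell its log2 fold change was -4.55 (adjusted p = 0.000843).

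These calls were few and depended on the tumour block. Without it, edgeR called 0 genes in either direction, with 47 higher and 45 lower at an unadjusted p under 0.05, while DESeq2 with the block called 6 and 6, of which 5 and 6 were among the 23. DESeq2 left Gzma, Gm156, Plek, Nr4a2, Maf, Ly6a, Tbc1d4, Il10, Col2a1 and Ramp3 uncalled, with adjusted p between 0.053 (Maf) and 1 (Gm156 and Il10), and gave no adjusted p for Htra1 and Tnfrsf13b. With EGFP under 10 per 10000, a limit chosen after seeing the data, Nkg7 (adjusted p = 0.0764), Klrd1 (0.0752), Nr4a2 (0.132), Ly6a (0.0736) and Ramp3 (0.112) did not pass. The CD4 class of tumour 1 held 158094 UMIs in 21 cells, against 1242731 UMIs in the CD8 class.

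By role, the cytotoxic list had 3 of 12 tested genes higher (Nkg7, Cst7 and Gzma) and none lower, with a median log2 fold change of 1.01 and 11 of 12 positive. The natural killer receptor list had 2 of 11 higher and none lower, with a median of 2.26 and 10 positive. The median was 2.25 with a gene at 0 in CD4 T cells set to the floor of 3 counts. Inhibitory receptors and exhaustion factors had 1 of 15 higher, Nr4a2, with a median of 0.52. Lists of lower median were cytokines and chemokines (2 of 9 lower, Tnfsf8 and Il10, median -0.91), helper factors (2 of 6 lower, Maf and Izumo1r, median -0.85) and naive, memory and progenitor genes (1 of 13 lower, Slamf6, median -0.44).

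No gene passed in the T-cell receptor signalling list (12 tested, median -0.63, 4 at an unadjusted p under 0.05), the interferon response list (16 tested, median -0.73, 7 unadjusted), the homing list (11 tested, median 0.10, 7 unadjusted), the cytokine receptor list (14 tested, median -0.34, 6 unadjusted) or the residency list (7 tested, median -0.29, 1 unadjusted). The immediate early list (10 tested, median 0.13) and the cell cycle genes outside the gate (15 tested, median -0.23) had none at either level. Over all 6258 genes tested, 402 had an unadjusted p under 0.05 by edgeR. DESeq2 called 0 genes in each of these lists.

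Several genes that commonly name CD8 effector cells did not pass. Prf1, which encodes perforin, had 139 and 10.8 CPM in CD8 T cells, against 50.6 and 0 CPM in CD4 T cells (log2 fold change 1.96 ± 0.74, SE, adjusted p = 0.571). Gzmb, granzyme B, had 49.1 and 458 CPM in CD8 T cells, against 82.2 and 157 CPM in CD4 T cells (log2 fold change 0.91 ± 0.65, SE, adjusted p = 0.962). Ccl5, a chemokine of effector T cells, had 1490.3 and 1551 CPM in CD8 T cells, against 898 and 119.9 CPM in CD4 T cells (log2 fold change 2.12 ± 0.62, SE, adjusted p = 0.272). For Ccl5 the CD8 values exceeded both CD4 values, and in CD4 T cells of tumour 1 a single cell held 96 of 142 UMIs. Macrophages held Ccl5 too, at 961 and 344 CPM. These 3 genes passed under other settings. With only the CD8 and CD4 classes fitted, on 1 residual degree of freedom, adjusted p was 0.00243 for Prf1, 0.00697 for Gzmb and 2.87e-17 for Ccl5. With the highest cell of each gene left out, a setting chosen after seeing the data, it was 6.59e-05, 2.1e-07 and 5.79e-37 in that order. That setting takes a larger share of UMIs from the smaller CD4 class, which favours CD8 T cells, so it lends these genes no support. Ccl5 also passed with no filter on low counts and after thinning to 2000 UMIs, and Prf1 with no filter (adjusted p = 0.0286).

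Ifng, which encodes interferon gamma, had 889 and 147 CPM in CD8 T cells, against 929.8 and 934 CPM in CD4 T cells (log2 fold change -1.37 ± 0.42, SE, adjusted p = 0.308). In CD4 T cells of tumour 2 a single cell held 459 of its 483 UMIs, and with the highest cell of each class and tumour left out the log2 fold change was 1.09 (adjusted p = 0.00385), a setting chosen after seeing the data. As that setting takes a larger share of UMIs from the smaller CD4 class, no direction is read from it. Pdcd1, which encodes PD-1, had 222 and 242 CPM in CD8 T cells, against 158 and 133 CPM in CD4 T cells (log2 fold change 0.85 ± 0.35, SE, adjusted p = 0.683). Tox had 335 and 26.1 CPM in CD8 T cells, against 158 and 17.4 CPM in CD4 T cells (log2 fold change 1.05 ± 0.33, SE, adjusted p = 0.328), with tumour 1 above tumour 2 in both classes.

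Other genes of the named set had log2 fold changes of 0.59 for Lag3, 0.14 for Havcr2, -1.01 for Tcf7, -0.66 for Il7r and -0.19 for Cxcr6, none of which passed. Gzmk, Tigit, Cd40lg, Zbtb7b and Itgae were below the count filter and were not tested. Cd40lg, the CD40 ligand of helper cells, had 1 and 3 UMIs in CD8 T cells (0.805 and 2.3 CPM), against 75.9 and 5.8 CPM in CD4 T cells.

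Against NK cells, the other killer lymphocytes of these tumours, CD8 T cells were lower in granzymes and NK receptors and higher in inhibitory receptors and costimulatory receptors. By edgeR, 36 of 6258 genes were higher in CD8 T cells (0.575%) and 47 were lower (0.751%). The NK class was small, with 37036 UMIs from 5 cells in tumour 1 and 350364 UMIs from 29 cells in tumour 2, against 1242731 and 1302093 in CD8 T cells. It was chosen for the NK receptor genes Ncr1 and Klrb1c and for the absence of Cd3. Lower NK receptor genes and higher T-lineage genes in CD8 T cells therefore describe the gates in part.

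Gzma stood at 113 and 621 CPM in CD8 T cells, against 3699 and 4327 CPM in NK cells (log2 fold change -3.76 ± 0.55, SE, adjusted p = 0.000644), and Gzmb at 49.1 and 458 CPM, against 2241 and 1227 CPM (log2 fold change -3.11 ± 0.62, SE, adjusted p = 0.0104). Both granzymes were lower in CD8 T cells of either tumour than in NK cells of either tumour. Gzmc and Serpinb6b, a protease inhibitor of the granule list, were also lower, so 4 of the list's genes fell and none rose. Of the NK receptors, Klre1, Klrk1 and Klra7 were lower, with Klre1 at 342 and 36.1 CPM in CD8 T cells, against 1026 and 257 CPM in NK cells (log2 fold change -1.94 ± 0.32, SE, adjusted p = 0.00269). The level of Klre1 in CD8 T cells thus lay between those of CD4 T cells and NK cells in each tumour. Tyrobp and Fcer1g, the signalling adaptors of NK and myeloid receptors, had log2 fold changes of -4.48 and -4.29, and Klra9, another NK receptor gene, -7.43. Spp1 was called lower too (-3.90), but without its highest cell the log2 fold change was 0.00, and in tumour 1 alone it was 0.14.

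In the other direction, Pdcd1 had 222 and 242 CPM in CD8 T cells, against 0 and 5.71 CPM in NK cells, a ratio of summed counts of 45.0 (counting interval 12.4 to 372.3). Ctla4, Tox, Lag3 and Rgs16 were higher with it, making 5 of the inhibitory list, with summed ratios of 20.6 (6.98 to 100.1) for Ctla4 and 22.8 (7.76 to 111.1) for Tox. Il7r, the survival receptor for interleukin 7, had a ratio of 20.5 (5.61 to 169.9). Receptors of costimulation and growth factors had 4 genes higher (Il2ra, Tnfrsf4, Cd28 and Icos), with Tnfrsf4, OX40, at least 29.4-fold higher against an NK class with no UMI. Gm156 was at least 50.7-fold higher and the T-lineage factor gene Bcl11b at least 4.97-fold, since neither had a UMI in NK cells. The other genes named for the largest rise were Gm8369, Gldc and Zbtb32, with Gm8369 at least 21.0-fold higher, again against no UMI in NK cells. Ifng, Ltb, Cxcr6, the adaptor Lat and the interferon-induced Ifi27l2a were also higher in CD8 T cells.

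DESeq2 called 16 genes higher and 31 lower, of which 16 and 26 were among those above, and edgeR without the tumour block called 6 and 4. In the DESeq2 fit, Pdcd1 and Ctla4 were the inhibitory genes called. DESeq2 did not call Gzma (adjusted p = 0.835), Klrk1 (0.0634), Klra7 (0.973), Klra9 (0.291), Bcl11b (0.152), Gm156 (0.566), Zbtb32 (0.157), Il2ra (0.0652), Cxcr6 (0.503) or Ltb (0.262).

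Against cycling CD8 T cells, non-cycling CD8 T cells were lower in genes of DNA replication and mitosis and higher in Ccl5, Ly6c2 and Txk. Of 6258 genes, 32 were higher in non-cycling cells (0.511%) and 161 lower (2.57%) by edgeR. The division genes of the gate separate these classes, so the fall of 13 of 15 other cell cycle genes, with a median log2 fold change of -1.95, describes the gate and is no finding. The lowest by rule were Casc5, Esco2, Ccna2, Aurka, Ska1 and Fbxo5, all mitotic or cell cycle genes. Non-cycling cells were shallower, at a median of 8592 and 8906 UMIs, against 19156.5 and 25998.5 UMIs in cycling cells.

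Ccl5 had 1490.3 and 1551 CPM in non-cycling CD8 T cells, against 291 and 239.8 CPM in cycling CD8 T cells (log2 fold change 2.58 ± 0.59, SE, adjusted p = 0.0155). Ly6c2 had 56.3 and 296 CPM in non-cycling CD8 T cells, against 8.52 and 94.4 CPM in cycling CD8 T cells (log2 fold change 2.01 ± 0.30, SE, adjusted p = 0.000315). Txk, a Tec-family kinase of T cells, had 123 and 49.9 CPM in non-cycling CD8 T cells, against 42 and 18.3 CPM in cycling CD8 T cells (log2 fold change 1.52 ± 0.27, SE, adjusted p = 0.00184). For Ccl5 and Txk both non-cycling values exceeded both cycling values. After thinning to 2000 UMIs per cell Txk had a log2 fold change of 1.67 and did not pass (adjusted p = 0.105). Ccl5 was seen in 82 and 67 non-cycling members, with at most 220 and 253 UMIs in a single cell, and DESeq2 did not call it (adjusted p = 0.509).

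The histone demethylase genes Kdm5b and Kdm7a were higher by 2.02 and 1.80 on the log2 scale, on 23 and 25 UMIs of Kdm5b in non-cycling cells, and the receptor gene Lilr4b by 1.78. Gfap, an astrocyte gene, was called too, at 26.6 and 112 CPM in non-cycling cells, against 12.2 and 26.4 CPM in cycling cells. In tumour 2, 113 of its 146 UMIs came from a single member, and without the highest cell the log2 fold change was 0.72 (adjusted p = 0.324). Other genes known from glia or glioma were also among the 32, and are named here after their values were seen: Sox10, Mbp, Tnr, Col20a1, Fabp7, Sparcl1 and Serpina3n, with log2 fold changes of 0.86 (Fabp7) to 2.15 (Col20a1). Wfdc12, also called, had no UMI in tumour 1 in either class. Summed glioma and neural markers were likewise higher in non-cycling cells, at 552.8 and 689.7 CPM, against 450.4 and 346.5 CPM in cycling cells. Cytotoxic, NK receptor and inhibitory lists had no gene called by edgeR or DESeq2. They had 2 of 12, 1 of 11 and 3 of 15 genes at an unadjusted p under 0.05 by edgeR. Over all 6258 genes tested, 743 were at that level, so these counts are not read as a result.

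Between the tumours, CD8 T cells of tumour 1 held more of the killer receptors, Tox, Lag3 and Ifng, and those of tumour 2 more of the granzymes and of the naive and memory genes. Part of this was not particular to CD8 T cells. In CD4 T cells Klre1 (44.3 and 3.87 CPM), Klrd1 (215 and 17.4 CPM) and Tox were likewise higher in tumour 1, while the Ifng values were close. Klre1 was also higher in NK cells of tumour 1 (1026 and 257 CPM). With 1 library per tumour there is no test, so genes are described as higher where the ratio of CPM was at least 3-fold and the 95% Poisson intervals did not overlap, among 6396 genes with at least 20 UMIs in the higher tumour. By that rule 374 genes (5.85%) were higher in tumour 1 and 278 (4.35%) in tumour 2, and the median log2 ratio of all genes was 0.00. The number higher in tumour 2 fell to 137 when the cells with the highest Scrublet doublet scores were removed.

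The cytotoxic genes split. Prf1 had 139 CPM in CD8 T cells of tumour 1 and 10.8 CPM in those of tumour 2, a ratio of 12.9-fold (7.51 to 24.2), in 74 of 130 and 7 of 98 cells. Cst7 went the same way, at a ratio of 4.43-fold (3.75 to 5.25). Gzmb had 49.1 CPM in tumour 1 and 458 CPM in tumour 2, and was 9.33-fold (7.16 to 12.3) higher in tumour 2, in 27 and 48 cells. Gzma, for which a single cell held 93 of 141 UMIs in tumour 1, was 5.47-fold (4.57 to 6.59) and Gzmc 11-fold (4.01 to 42) higher in tumour 2. The tumour with more perforin transcript was thus the one with fewer granzyme transcripts, and the list had 2 genes higher in tumour 1 and 4 in tumour 2 of 13 counted.

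Cytokine genes were higher in tumour 1, with 4 of 10 above the limit and none in tumour 2. Ifng had 889 CPM in tumour 1 and 147 CPM in tumour 2, a ratio of 6.06-fold (5.19 to 7.11), in 100 and 35 cells. In tumour 2 a single member held 97 of its 191 UMIs. Ccl4, an inflammatory chemokine, had 463 and 82.9 CPM, and Tnf 21.7 and 1.54 CPM in tumours 1 and 2. Ccl5 did not differ in this way, at 1490.3 and 1551 CPM.

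Of the inhibitory receptors and exhaustion factors, 6 of 14 were higher in tumour 1 and none in tumour 2, with a median log2 ratio of 1.07. Tox had 335 CPM in tumour 1 and 26.1 CPM in tumour 2, a ratio of 12.8-fold (9.03 to 18.8), and was detected in 123 of 130 and 26 of 98 cells. Lag3 had 337 and 73 CPM, with 252 and 103 CPM in macrophages, and Havcr2, which encodes TIM-3, 54.7 and 8.45 CPM. Nr4a2, Bhlhe40 and Entpd1 completed the 6. Pdcd1 was close to even, at 222 and 242 CPM, with a ratio of 0.918-fold (0.778 to 1.08).

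The NK receptor genes Klre1, Klrd1 and Cd244 were higher in tumour 1, with ratios of 9.47-fold (7 to 13.1) for Klre1 and 5.36-fold (4.47 to 6.46) for Klrd1, and Klra7 was higher in tumour 2. Runx3, which maintains the CD8 lineage, had 218 and 55.3 CPM in tumours 1 and 2, and with Cd69 and Prdm1 made 3 of 8 residency genes higher in tumour 1, while P2rx7 was higher in tumour 2, at 4.02 CPM in tumour 1 and 19.2 CPM in tumour 2. Bcl2, the survival factor, had 571 and 99.8 CPM and was found in 120 and 64 cells. Cd3e (373 and 76 CPM) and Cd8b1 are genes of the gate, so their levels are a description only and add nothing to these differences.

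Naive, memory and progenitor genes were higher in tumour 2 for 7 of 14 genes and in tumour 1 for 2, Bcl2 and Actn1, with a median log2 ratio of -1.64. Ccr7, which guides cells to lymph nodes, had 99.8 CPM in tumour 1 and 465 CPM in tumour 2, and was 4.66-fold (3.84 to 5.71) higher in tumour 2. Tcf7, the gene of TCF-1, had 4.02 and 36.9 CPM, and Lef1 0.805 and 30.7 CPM in tumours 1 and 2. Il7r was even, at 106 and 105 CPM. Slamf6, Satb1 and Igfbp4 were also higher in tumour 2, and for Igfbp4 a single cell held 47 of 60 UMIs.

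Of 16 interferon response genes, 3 were higher in tumour 2 and none in tumour 1. Isg15, an interferon-induced ubiquitin-like protein, had 37.8 CPM in tumour 1 and 233 CPM in tumour 2. The interferon-inducible GTPases Igtp and Gbp2 had 51.5 and 281 CPM for Igtp, and 16.9 and 75.3 CPM for Gbp2. Tumour 2, with less Ifng transcript in its CD8 T cells, was thus the one with more of these 3 transcripts. In the homing list, Cxcr3, Ccr2 and Itgb7 were higher in tumour 2 and Itga4 and Cx3cr1 in tumour 1.

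**Figure D2:**
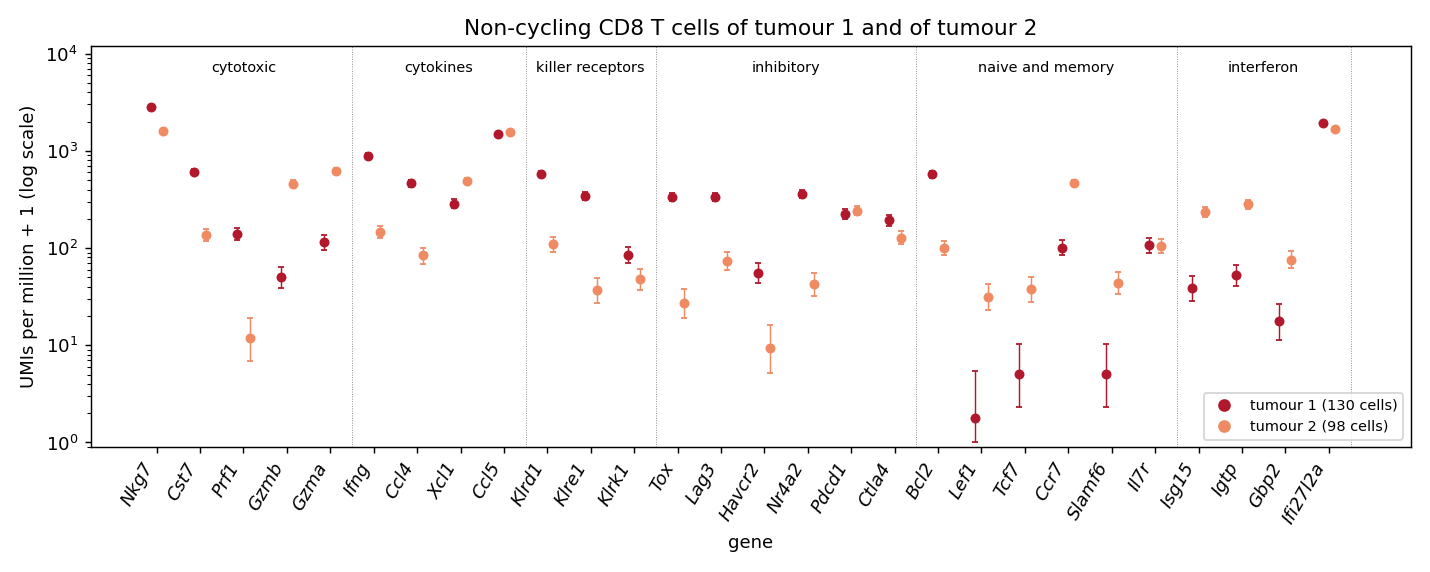
CPM plus 1 on a log axis in CD8 T cells of tumour 1 (left point of each pair) and tumour 2 (right point), with 95% Poisson bars, for genes of the cytotoxic, cytokine, NK receptor, inhibitory, memory and interferon lists. Tox, Prf1 and Klre1 lie higher in tumour 1, and Gzma, Gzmb, Lef1 and Isg15 in tumour 2.

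Some genes with the largest ratios also differed between the tumours in other cells. In tumour 1, Spp1, which encodes osteopontin, had 539.9 CPM, against 9.98 CPM in tumour 2, a ratio of 54.1, in 61 and 10 cells. It differed likewise in CD4 T cells, at 626 and 42.5 CPM, while macrophages held 679 and 461 CPM. Ttn, the gene of titin, had 74.8 and 2.3 CPM over 44 cells of tumour 1 and 1810011H11Rik a ratio of 30.9-fold (8.19 to 261) over 42 cells. The other 5 named for tumour 1 rested on few cells: Areg on 10, Calca and Aqp4 on 11 each, and 1810009J06Rik and Gm2663 on 2 each. In tumour 2, Gm10709 was 738-fold (132 to 29177) higher and was found in 95 of 98 cells, and it differed in macrophages (0.814 and 465 CPM) and in EGFP-high cells (1.61 and 474 CPM).

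Ass1, the arginine-producing enzyme argininosuccinate synthase, was 85.9-fold (15 to 3430.0) higher in tumour 2 over 45 cells, with 29.8 and 198 CPM in macrophages. Wfdc12 and S100a9 had no UMI in tumour 1 members. With tumour 1 set to the floor of 3 counts, they were 103.4-fold and 41.0-fold higher in tumour 2, with 108 of the 129 S100a9 UMIs in a single cell. Wfdc12 had 250 CPM in members of tumour 2, against 70.1 CPM in cycling CD8 T cells there. Of its 325 UMIs, 217 remained without the highest cell, and the source of these transcripts was not tested. Hspa1a, 3110079O15Rik, Snhg18 and Tspan17 completed the named genes of tumour 2. Of the 374 genes higher in tumour 1, 204 (54.5%) were also at least 3-fold higher there in CD4 T cells, 169 (45.2%) in cycling CD8 T cells, 98 (26.2%) in macrophages and 51 (13.6%) in EGFP-high cells. Of the 278 higher in tumour 2, those counts were 137 (49.3%), 109 (39.2%), 62 (22.3%) and 60 (21.6%). In the other classes only the 3-fold ratio was asked, with no minimum of UMIs and no interval limit. The CD4 class of tumour 1 held only 158094 UMIs, where a few UMIs can make such a ratio. The share over all 6396 genes was not taken, so no overlap beyond background is read from these counts. Host, batch and tumour cannot be told apart in these differences.

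Because cells differ in depth, shares of cells with a transcript were taken after each cell was thinned to 2000 UMIs, which left out no CD8 T cell and 3 CD4 T cells of tumour 1. Tox was then found in 49.2% (40.4 to 58.1) of CD8 T cells of tumour 1 and in 2.04% (0.248 to 7.18) of those of tumour 2, against 22.2% and 0% of CD4 T cells. Macrophages had 0% and 0.75%, and EGFP-high cells 4% and 3%. Thinned shares of macrophages and EGFP-high cells, here and below, come from 400 cells drawn at random per class and tumour. The interval of CD8 T cells in tumour 2 included the shares of both classes there, and no change is read from it at this depth. Before thinning the shares of CD8 T cells were 94.6% and 26.5%, at median depths of 8592 and 8906 UMIs, with 18501 and 9939.5 UMIs in EGFP-high cells and 17588 and 20267 UMIs in macrophages.

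Ifng was found in 47.7% (38.9 to 56.6) of CD8 T cells of tumour 1 and 13.3% (7.26 to 21.6) of those of tumour 2 (76.9% and 35.7% before thinning), against 16.7% and 13.2% of CD4 T cells and 0.25% and 1.25% of macrophages. Gzmb was found in 10% (5.43 to 16.5) and 36.7% (27.2 to 47.1) of CD8 T cells (20.8% and 49.0% before thinning), against 5.56% and 13.2% of CD4 T cells and 0% and 0.25% of macrophages. Pdcd1 was found in 33.1% (25.1 to 41.9) and 23.5% (15.5 to 33.1) of CD8 T cells (81.5% and 49.0% before thinning), against 33.3% and 21.1% of CD4 T cells and 0.25% and 0.5% of macrophages. Shares of these genes in CD8 T cells were above background, with Ifng more frequent in tumour 1 and Gzmb in tumour 2, while the intervals of Pdcd1 overlapped.

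**Figure D3:**
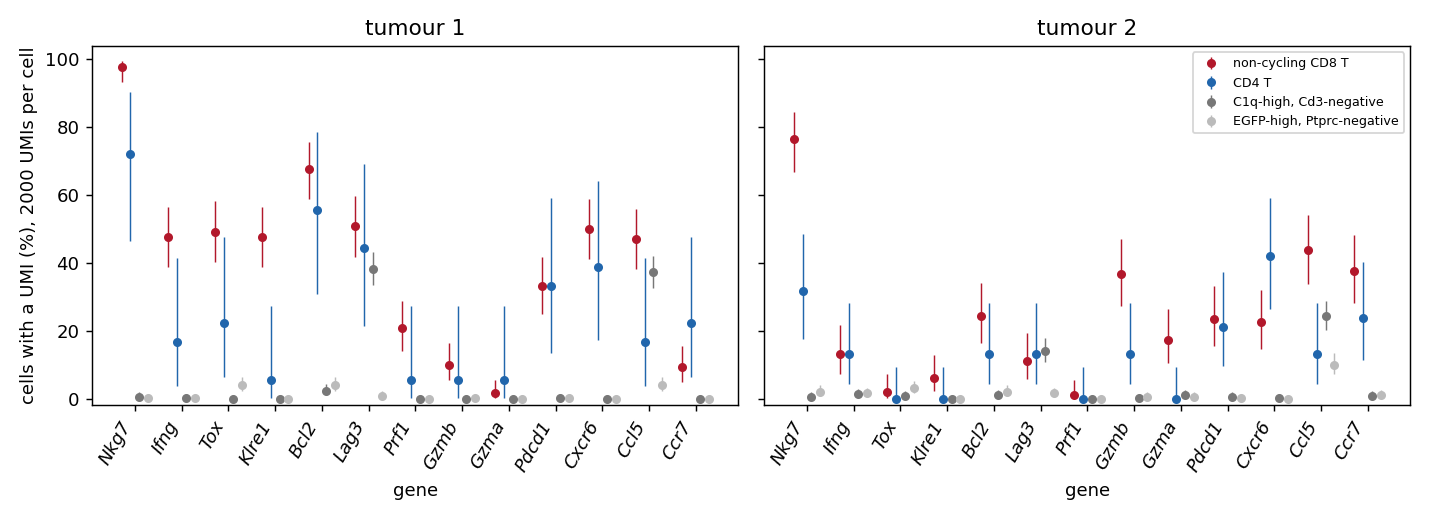
Percent of cells with at least 1 UMI at 2000 UMIs per cell, by gene, in CD8 T cells, CD4 T cells, macrophages (C1q-high) and EGFP-high cells, with tumours 1 and 2 in separate panels and 95% exact binomial bars. The macrophage and EGFP-high points rest on 400 cells drawn at random per class and tumour. Tox was found in 49.2% of CD8 T cells in tumour 1 and 2.04% in tumour 2, and Gzmb in 10.0% and 36.7%.

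Lists were also summed cell by cell, with no background share taken for them in other classes. At 2000 UMIs per cell the cytotoxic list gave a median of 10 UMIs in tumour 1 and 8 in tumour 2, with 1 cell at 0 in each. The inhibitory list gave a median of 5 UMIs in tumour 1 and 1 in tumour 2, with 2 and 33 cells at 0, and the killer receptor list 2 and 0, with 10 and 56 cells at 0. The naive and memory list had a median of 2 in both tumours, and the interferon list 4.5 and 7. Transcripts of the memory, cytotoxic and inhibitory lists were present together in 114 of 130 cells of tumour 1 and in 52 of 98 of tumour 2. Single genes of these lists were not particular to T cells at this depth: Lag3 was found in 38.2% and 14% of macrophages.

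Spearman correlations across cells, which share a library and a depth and are given as descriptions, were 0.02 and 0.40 between the cytotoxic and inhibitory lists, 0.07 and -0.25 between memory and cytotoxic, and 0.31 and 0.30 between cytotoxic and killer receptor lists in tumours 1 (130 cells) and 2 (98 cells). Tox and Pdcd1 were found together in 18 of 130 cells of tumour 1 and in none of 98 of tumour 2, where 2 cells held Tox at this depth. Gzma and Gzmb were found together in 1 cell of tumour 1 and 11 cells of tumour 2, where 17 held Gzma and 36 held Gzmb.

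**Figure D4:**
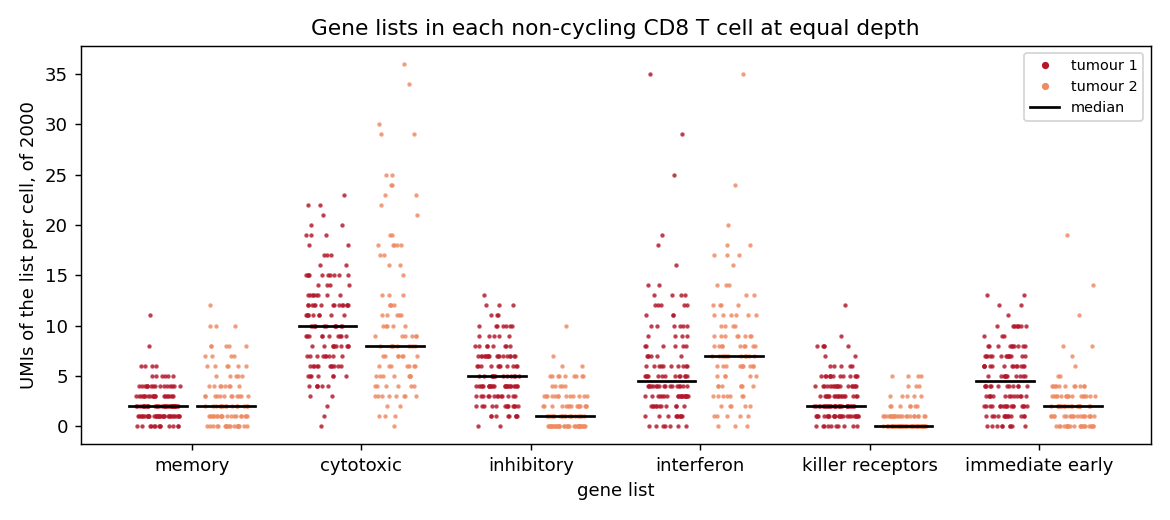
UMIs of 6 gene lists among 2000 UMIs per cell, with 1 point per CD8 T cell, tumour 1 left of tumour 2 and black lines at the medians. The inhibitory list had medians of 5 and 1 UMIs and the killer receptor list 2 and 0 in tumours 1 and 2, while the cytotoxic list had 10 and 8.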

How the data were processed

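Single-cell suspensions of 2 NPCTKO GBMs were profiled with a 10x Genomics 3′ kit (version 2, per the labels). The authors deposited UMI counts per gene and barcode, made with Cell Ranger 4.0.0 against mm10, per the labels and the study's methods; these counts are raw and were not filtered to the study's final cells. No cell annotation was used, so every class was gated from transcripts. Gate limits and lists were chosen with earlier results of these data known. No doublet was removed by the rule. Scrublet's automatic threshold marked 0 and 1 barcodes, so the highest 0.8% per 1000 barcodes (1636 and 2766, with 5 and 10 members) were removed as an alternative only.

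UMIs were summed over each tumour and 5 lymphoid classes (CD8, CD4, Foxp3, cycling CD8 and NK), filtered by filterByExpr, scaled by TMM and fitted with edgeR 4.0.16 (quasi-likelihood test, R 4.3.3) with class and tumour as terms. The fit held 6273 genes and 4 residual degrees of freedom, and 6258 genes remained once gate genes were left out. Adjustment followed Benjamini-Hochberg across every gene of the fit (threshold 0.05). Fitted fold changes use edgeR's default prior, and differences within 1 tumour are of log2 CPM with a prior count of 2. The SE printed with a fold change is its absolute value divided by the square root of the test's F statistic. It is approximate and was not fitted separately. The tumours are the only replicates. With the tumour as a block, p-values measure how class differences vary between these 2 animals, with that spread pooled over the 5 classes. They do not measure the spread in level between animals. Classes from the same tumour deviated together from the class means in all 10 class pairs (correlation 0.17 to 0.73), and the tumour was kept as a block because the classes share an animal. DESeq2 1.42.0 and other settings were alternatives. On simulated counts of 5569 genes the CD8 to CD4 fit recovered 22 of 100 genes changed 2-fold and 74 of 100 changed 4-fold, with 13 false calls. In the simulation the classes of a tumour shared the same means, apart from the genes changed in CD8. Single cells were not simulated, so it does not give the error rate of the real calls.

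Genes were named by rule. They were list members that passed the CD8 to CD4 test, 20 genes of known role, the 10 highest and 10 lowest fold changes in that comparison (6 and 6 in the others) with 1 direction in both tumours and at least 20 UMIs in each tumour in the higher class, and the 8 largest ratios in each direction between tumours. Genes named beyond it (Ramp3, Tnfrsf13b, Col2a1 and Ermn, list genes called against NK or cycling cells, and list genes compared between tumours) were chosen after their values were seen. Receptor variable segments were not analysed here, and a few genes counted in the lists are not reported here by name. Intervals are exact Poisson or binomial at 95% and cover counting error only.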

Additional observations from a re-analysis of the deposited data

Results flagged for a closer look

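The chemokine genes Ccl3 and Ccl4 moved in opposite directions between CD8 and CD4 T cells in the 2 tumours, which is why they are given here. The log2 difference of CPM, CD8 minus CD4, was -2.39 in tumour 1 and 1.41 in tumour 2 for Ccl3. For Ccl4 it was -1.94 in tumour 1 and 2.48 in tumour 2. The difference between the tumours was not tested, since each has 1 library.

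Transcripts of tdTomato, a reporter outside the measured mouse genes, were present in CD8 T cells of tumour 1, with 26 UMIs in 23 of 130 cells, or 20.9 per 1000000 UMIs (13.7 to 30.7). No UMI was found in CD8 T cells of tumour 2. Macrophages held 11.3 and 0.33 per 1000000 and EGFP-high cells 2.78 and 0.65 per 1000000 in tumours 1 and 2. Per the study both hosts carried the Ai14 tdTomato reporter, one with Tek-Cre and one with Tbx18CreERT2/+, and the labels do not say which library came from which. The source of these transcripts was not tested, and host and tumour cannot be told apart.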

How the results depend on the processing

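Counts of calls depended on the setting more than directions did, and the cause was not tested except where the setting itself gives fewer genes or cells. All counts below are written as higher and lower in CD8 T cells. Without the tumour as a block, 0 and 0 genes passed against CD4 T cells, 6 and 4 against NK cells, and 0 and 16 against cycling CD8 T cells; with it, the counts were 10 and 13, 36 and 47, and 32 and 161. DESeq2 gave 6 and 6 against CD4, 16 and 31 against NK, and 15 higher against cycling cells. With no filter on low counts the numbers were 45 and 41, 140 and 100, and 53 and 329. With only the classes compared they were 67 and 77 against CD4 and 109 and 361 against cycling cells, on 1 residual degree of freedom. Removing the highest Scrublet scores gave 24 and 30, 75 and 77, and 85 higher, and lowered the genes higher in tumour 2 to 137. Thinning each cell to 2000 UMIs gave 13 and 13 against CD4, 22 lower against NK and 17 and 41 against cycling cells, with fewer genes tested. Against CD4, 7 of the 10 and 6 of the 13 main calls were among them. Izumo1r and Il10 did not pass then (edgeR adjusted p = 0.088 for each).

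The next 3 settings were chosen after seeing the data. EGFP under 10 per 10000 gave 21 and 27 against NK and 11 and 82 against cycling cells. Leaving out the highest cell of each gene, which removes a larger share from small classes, gave 51 and 51 against CD4, 79 higher against NK and 117 higher against cycling cells. The 3 classes with at least 20 cells gave 17 higher against CD4 and 59 and 258 against cycling cells.

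Of the genes named against CD4 T cells, leaving out the highest cell turned Ifng to 1.09 and Col2a1 to 0.14 (log2). Without a tumour there is no residual degree of freedom and no test, and Ermn ranged from -4.09 to 0.42. Against NK cells Spp1 was 0.00 without its highest cell (0.001993 unrounded) and ranged from -6.23 to 0.14 when 1 tumour was left out.

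Shares with a UMI moved with depth. At 1000 UMIs they were, in tumours 1 and 2, 5.38% and 20.4% for Gzmb, 35.4% and 6.12% for Ifng, and 16.9% and 15.3% for Pdcd1, and 23.8% for Tox in tumour 1. Unthinned they were 20.8% and 49.0% for Gzmb, 76.9% and 35.7% for Ifng, 81.5% and 49.0% for Pdcd1, and 94.6% and 26.5% for Tox. Depth limits genes under about 20 UMIs per class, and the NK class of tumour 1 held 5 cells.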
